A study of Mus musculus with 6 samples.

Results

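Iron and heme handling was followed through 10 genes in ectopic endometriotic lesions of mice, out of 56884 genes in the deposited count table. The genes were chosen by name for their roles: Hmox1, Fth1, Ftl1, Slc40a1, Slc11a1, Tfrc, Trf, Cp, Hp and Hpx. The question was whether their RNA differs between Dnmt3a knockout (KO) and control (WT) lesions, since bleeding loads endometriotic lesions with iron. Dnmt3a is a DNA methyltransferase that adds new methylation marks. The 3 WT lesions grew from uterine fragments of Dnmt3a f/f females, which carry the floxed alleles but no Cre. The 3 KO lesions grew from Dnmt3a f/f:PR-Cre/+ females, in which Cre is made by cells that express the progesterone receptor. Donors were 8 weeks old, all recipients were wild-type female mice carrying an estrogen pellet, and the labels give 4 weeks as the time, where the study's methods give an earlier day. Cells that came from the recipient, and donor cells without the receptor, keep Dnmt3a in both groups, so the KO lesions are mixed tissue.

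The 6 libraries held 45370342 to 57239184 counts. Dnmt3a itself was at 43.9 to 52.7 CPM (counts normalized to library size with TMM scaling, the unit of every level below) in WT lesions and at 30.3 to 36.2 CPM in KO lesions, with no overlap. The lesions were not alike in makeup. Summed skeletal muscle markers reached 33099 and 36840 CPM in WT replicates 1 and 3 and at most 16.2 CPM in the other 4 libraries, and summed pancreatic acinar markers reached 6073 CPM in WT replicate 3 and at most 16.3 CPM elsewhere. Summed neutrophil markers stood at 12041 CPM in WT replicate 2 and between 44.99 and 560 CPM elsewhere. Summed adipocyte markers were highest in KO replicate 3, at 8621 CPM, against 1259 to 5362 CPM in the others. Endometrial epithelium and stroma markers, summed over 10 genes each, were present in every library, at 2023 to 4488 CPM and 2417 to 4077 CPM. Across all 18177 genes tested, 0.0055% had an adjusted p below 0.05 (edgeR quasi-likelihood test, Benjamini-Hochberg adjustment).

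Iron is scarce as a nutrient and toxic when free, so cells keep it bound. Transferrin (Trf) carries iron in plasma and the transferrin receptor (Tfrc) takes it up, ferritin heavy and light chains (Fth1, Ftl1) store it in a hollow shell, and ferroportin (Slc40a1) exports it, helped by the ferroxidase ceruloplasmin (Cp). When red cells break down, haptoglobin (Hp) binds hemoglobin and hemopexin (Hpx) binds heme, macrophages take up both, heme oxygenase 1 (Hmox1) opens the heme ring, and Slc11a1 moves metal out of the phagosome. Iron regulatory proteins tune several of these RNAs by binding a hairpin, the iron-responsive element (IRE), which blocks translation when it lies in the 5' UTR and protects the RNA from decay when it lies in the 3' UTR. RNA counts therefore report on Tfrc RNA stability as well as its synthesis, and do not report on ferritin protein.

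The IREs are shown because they mark which of the 10 RNAs hold a possible binding site of the iron regulatory proteins. They were searched in GENCODE M21 transcripts on GRCm38 as C, any 5 bases, the loop CAGTGN, and 5 bases that pair with the first 5 (G-T pairs allowed), on the transcript strand only. Capitals mark the loop, the other bases its flanks, and the sequences read 5' to 3'. Fth1, Ftl1 and Slc40a1 held 1 match each in the 5' UTR and Tfrc held 4 in the 3' UTR.
Fth1, 5' UTR, chr19:9982733-9982760, plus strand: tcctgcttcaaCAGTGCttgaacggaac
Ftl1, 5' UTR, chr7:45459779-45459806, minus strand: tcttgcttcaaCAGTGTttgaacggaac
Slc40a1, 5' UTR, chr1:45925465-45925492, minus strand: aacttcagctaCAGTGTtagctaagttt
Tfrc, 3' UTR, chr16:32631220-32631247, plus strand: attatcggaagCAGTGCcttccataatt
Tfrc, 3' UTR, chr16:32631599-32631626, plus strand: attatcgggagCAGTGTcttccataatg
Tfrc, 3' UTR, chr16:32631664-32631691, plus strand: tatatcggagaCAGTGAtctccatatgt
Tfrc, 3' UTR, chr16:32631711-32631738, plus strand: attatcgggaaCAGTGTttcccataatt
The paired form was found in the 5' UTR of 0.128% and the 3' UTR of 0.581% of 21875 protein-coding genes, while the loop letters alone were found in 29.2% and 65.8%. A match describes letters in the reference, not a site shown to work in these lesions.

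None of the 10 genes had an adjusted p below 0.05 between KO and WT lesions with edgeR, DESeq2 or limma. Of the 9 that passed the filter on low counts, 3 were higher and 6 lower in KO lesions by the sign of the log2 fold change, with a median of -0.13, against 0.01 over all genes tested. Leaving out WT replicate 2 gave 6 higher and 3 lower, with a median of 0.30. Leaving out KO replicate 3 gave 2 higher and 7 lower, with a median of -0.70. At an unadjusted p below 0.05, 2 of the 9 were called, Slc40a1 and Cp, both higher, where 14.7% of all genes tested were called in either direction. At the study's threshold, which also asks for a log2 fold change above 1 or below -1, Slc40a1 was the 1 gene called, against 3.1% of all genes called higher and 5.85% called lower. Among the 6 lesions, the highest value lay in WT replicate 2 for 5 genes, in KO replicate 1 for 2, in KO replicate 3 for 2 and in WT replicate 3 for 1. In bulk tissue, fewer cells of a type and less RNA per cell cannot be told apart.

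**Figure D1:**
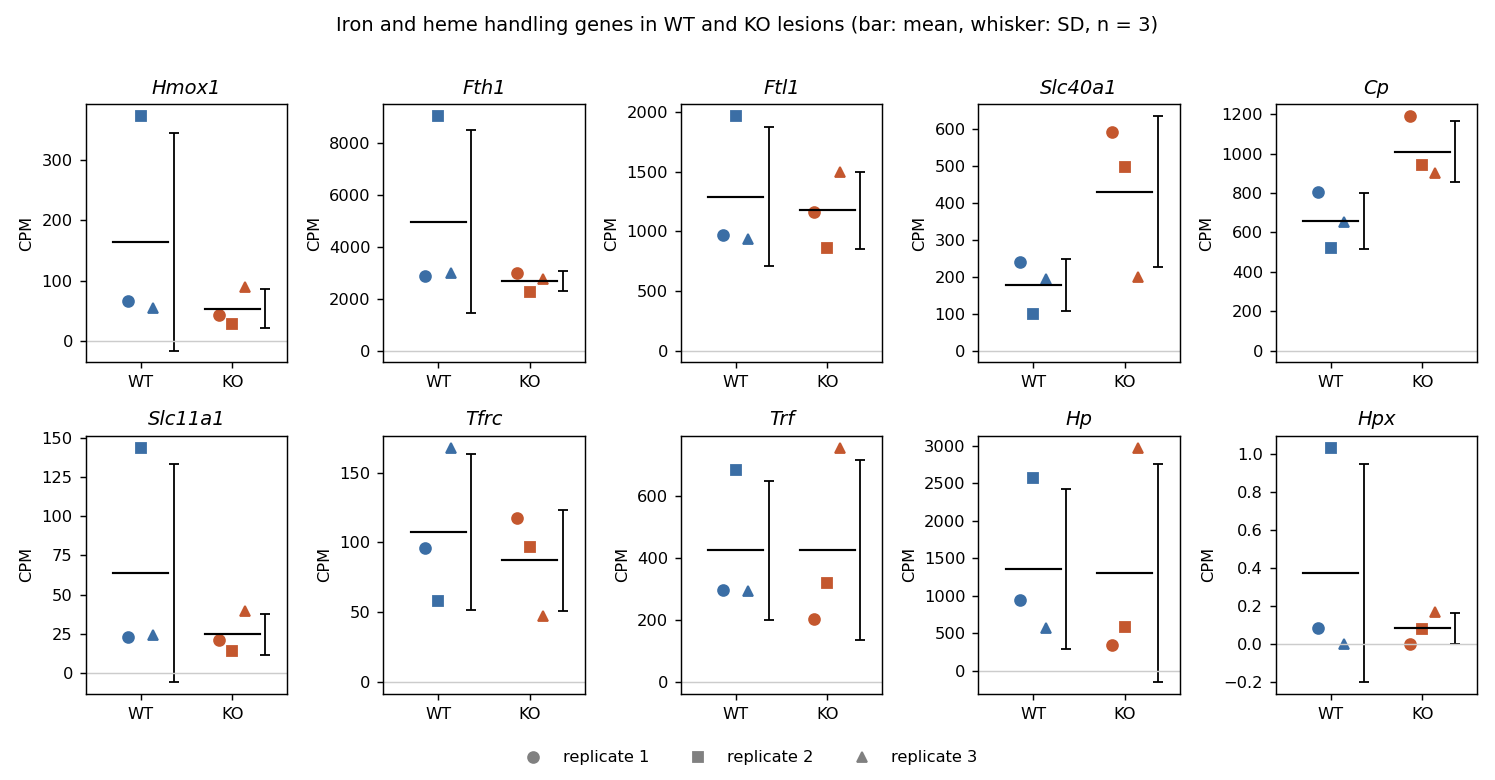
Level of each of the 10 genes (CPM) in the 3 WT and 3 KO lesions, with the mean as a bar and the SD as a whisker. WT replicate 2 stands far above the other lesions for Hmox1, Fth1 and Slc11a1, KO replicate 3 is highest for Hp and Trf, and only Cp has every KO lesion above every WT lesion.

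Heme breakdown and iron storage transcripts were highest in 1 WT lesion. Hmox1 was at 65.9, 373 and 55.3 CPM in WT replicates 1, 2 and 3, and at 43.0, 29.1 and 90.3 CPM in KO replicates 1, 2 and 3. WT replicate 2 was 4.13 times the next highest lesion, and the other 5 lesions were interleaved. The log2 fold change of -1.61 ± 0.87 (SE, n = 3 per group) was not significant (edgeR adjusted p = 0.403) and was -0.16 ± 0.49 without that lesion. Hmox2, the constitutive heme oxygenase, varied much less, from 56.7 to 78.5 CPM over the 6 lesions. The ratio of Hmox1 to Hmox2 counts was 1.16, 4.75 and 0.920 in WT, against 0.729, 0.491 and 1.54 in KO lesions, which overlapped (exact two-sided permutation test, p = 0.4, n = 3 per group).

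Ferritin RNA was abundant in every lesion: both chains together took between 0.330% and 0.447% of all counts in 5 libraries and 1.08% in WT replicate 2. Fth1, the chain with ferroxidase activity, was at 2894, 9051 and 2998 CPM in WT, against 3008, 2283 and 2769 CPM in KO lesions. Its level was nearly flat outside WT replicate 2, and the log2 fold change of -0.89 ± 0.51 became -0.13 ± 0.20 without that lesion. Ftl1, the chain that helps lay down the iron core, was at 972, 1967 and 936 CPM in WT, against 1164, 863 and 1503 CPM in KO lesions. Its second highest value was in KO replicate 3, so the groups overlapped (log2 fold change -0.13 ± 0.38, edgeR adjusted p = 0.880). The 3 annotated Ftl1 pseudogenes held 3.43% to 3.86% as many counts as Ftl1, and the 2 Fth1 pseudogenes held at most 0.00855% as many as Fth1. Any pseudogene named otherwise was not counted. Reads that fit both a gene and a near copy may be in neither count, so these shares do not measure how many were lost.

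The balance between the chains separated the groups. Ftl1 counts per Fth1 count were 0.336, 0.217 and 0.312 in WT lesions and 0.387, 0.378 and 0.543 in KO lesions, means of 0.288 ± 0.063 and 0.436 ± 0.093 (SD, n = 3 per group). Every KO lesion lay above every WT lesion, also with WT replicate 2 set aside, and the ratio does not depend on how libraries were scaled. The difference of 0.60 on the log2 scale had p = 0.1 in an exact two-sided permutation test, the smallest p that 3 against 3 can give, and 0.4 when adjusted over the 4 ratios examined. It ranged from 0.41 to 0.72 with single lesions left out.

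**Figure D2:**
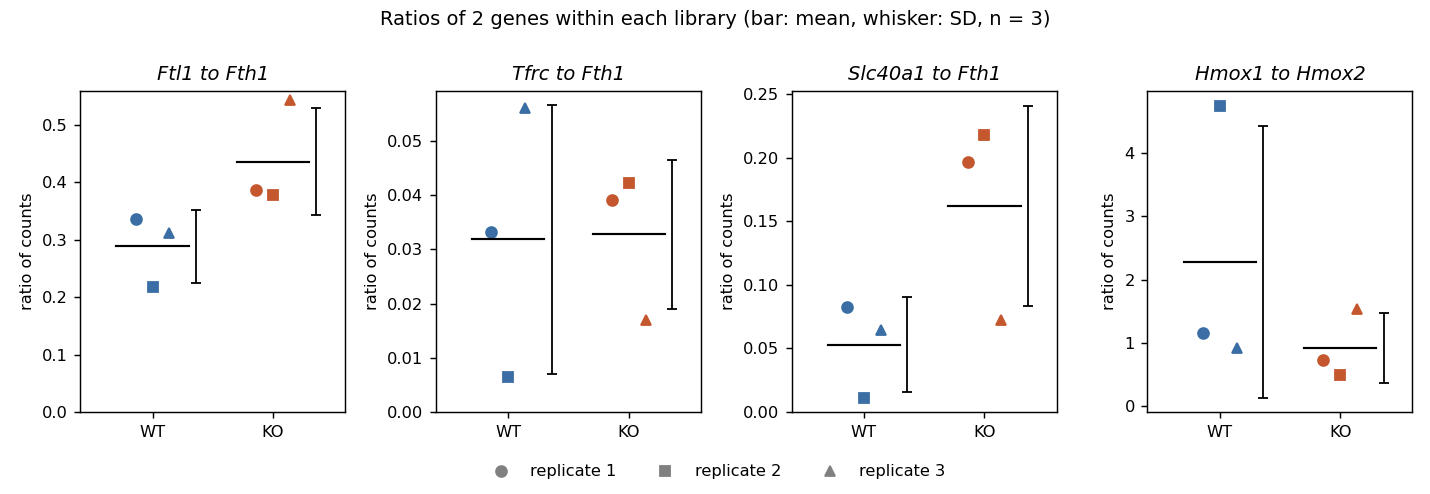
Ratio of the raw counts of a pair of genes within each lesion, with the mean as a bar and the SD as a whisker (n = 3 per group). For Ftl1 to Fth1 the KO lesions lie between 0.378 and 0.543 and the WT lesions between 0.217 and 0.336, and the other 3 ratios overlap between the groups.

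Slc11a1, the phagosomal metal transporter of macrophages and neutrophils, ranked the lesions as Hmox1 did at the top and bottom. It was at 23.0, 144 and 24.0 CPM in WT lesions, against 21.02, 14.1 and 39.2 CPM in KO lesions. WT replicate 2 was 3.66 times the next highest lesion. The log2 fold change was -1.36 ± 0.84 with all lesions (edgeR adjusted p = 0.447) and 0.08 ± 0.44 without WT replicate 2. Macrophage markers, summed over 12 genes, were at 2274, 6420 and 2676 CPM in WT, against 1930, 1502 and 3304 CPM in KO lesions, and neutrophil markers peaked in the same WT lesion. Expressed as a percentage of that macrophage sum, Slc11a1 was at 1.01, 2.24 and 0.896 in WT, against 1.09, 0.936 and 1.19 in KO lesions, and Hmox1 was at 2.90, 5.81 and 2.07 in WT, against 2.23, 1.94 and 2.73 in KO lesions. On this scale WT replicate 2 was still the highest lesion for both genes, and the groups overlapped. The part of macrophages and neutrophils in these values was not tested.

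**Figure D3:**
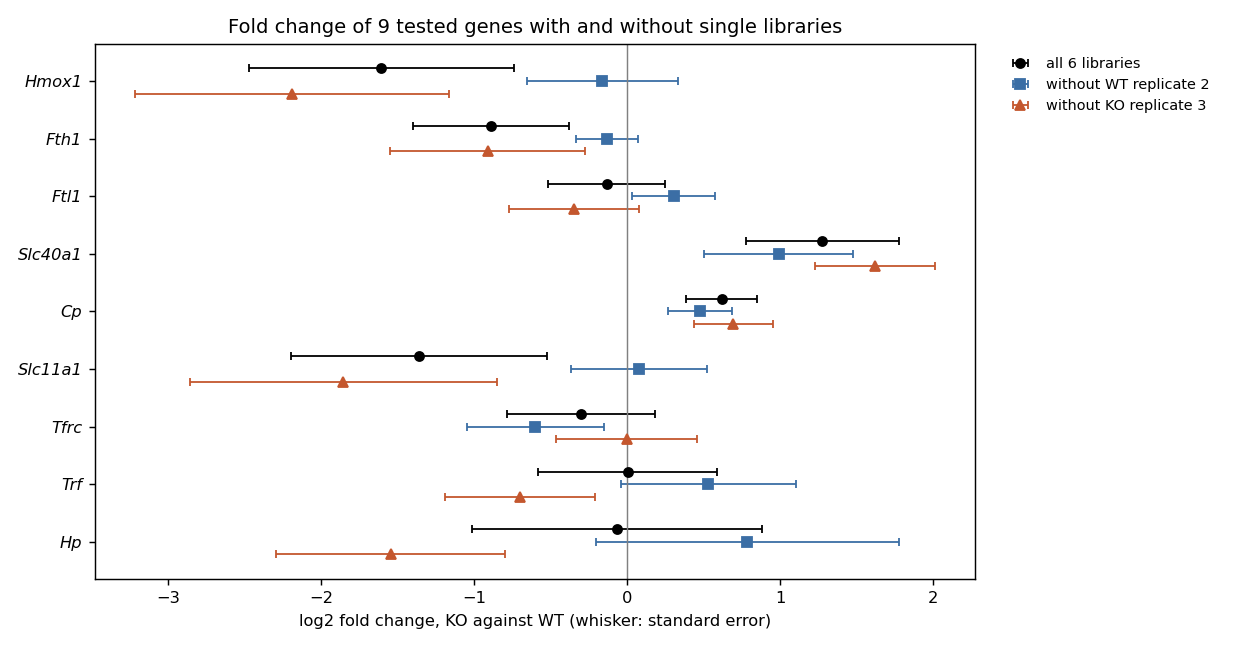
Log2 fold change of KO against WT lesions, with its SE as a whisker, for the 9 genes that could be tested, from all 6 libraries, without WT replicate 2 and without KO replicate 3. Hmox1, Fth1 and Slc11a1 move towards 0 without WT replicate 2, Hp moves from -0.06 to -1.54 without KO replicate 3, and Slc40a1 and Cp stay above 0 in all 3 fits.

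Of the export genes, Slc40a1 and Cp were higher in KO lesions at an unadjusted p below 0.05, and neither passed the adjusted test. Slc40a1, the only known cellular iron exporter, was at 239, 99.4 and 194 CPM in WT, against 592, 498 and 200 CPM in KO lesions. KO replicates 1 and 2 were above all WT lesions, while KO replicate 3 lay between WT replicates 3 and 1, so the groups overlapped. The log2 fold change was 1.28 ± 0.50 with an unadjusted p of 0.0430 and an adjusted p of 0.333 in the edgeR fit, so the difference was not significant over all genes, and it ranged from 0.97 to 1.62 with single lesions left out. Leaving out WT replicate 2 or 3, or KO replicate 1 or 2, took the gene below the study's threshold. Slc40a1 per Fth1 count was 0.0826, 0.0110 and 0.0647 in WT, against 0.197, 0.218 and 0.0723 in KO lesions, a log2 difference of 1.91 (exact two-sided permutation test, p = 0.2, and 0.4 when adjusted over the 4 ratios). This difference ranged from 0.996, without WT replicate 2, to 2.45, without WT replicate 1, with single lesions left out.

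Cp, which oxidizes iron as it leaves the cell, was at 805, 521 and 651 CPM in WT, against 1190, 941 and 901 CPM in KO lesions. It was the 1 gene of the 9 tested with no overlap between groups, with every KO lesion higher, where 10.7% of all genes tested had every KO lesion above every WT lesion and 8.74% had the reverse. The log2 fold change was 0.62 ± 0.23, with an unadjusted p of 0.0380 and an adjusted p of 0.332 in the edgeR fit. The sign held in all 13 alternative fits, from 0.47 to 0.79, but the unadjusted p was above 0.05 in 5 of them: 0.0522 with the replicate number as a block, 0.0700 when either lesion numbered 2 was left out, 0.0966 on leaving out WT replicate 3, and 0.123 on leaving out KO replicate 1. Heph, a membrane ferroxidase related to Cp, did not separate the groups: it was at 71.9, 92.5 and 58.1 CPM in WT, against 40.3, 62.9 and 224 CPM in KO lesions, with KO replicate 3 alone far above the rest.

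Epithelial markers moved with Slc40a1 in part. The sum of 10 endometrial epithelium markers was at 2331, 2023 and 3202 CPM in WT, against 4488, 3849 and 2181 CPM in KO lesions, highest in the same 2 KO lesions as Slc40a1. KO replicate 3, where Cp was above every WT lesion, had a lower epithelial sum than WT replicates 1 and 3. As a percentage of that sum, Slc40a1 was at 10.3, 4.91 and 6.06 in WT, against 13.2, 12.9 and 9.18 in KO lesions, and Cp was at 34.5, 25.7 and 20.3 in WT, against 26.5, 24.4 and 41.3 in KO lesions. On this scale both genes overlapped between the groups, Cp the more fully. The part of the epithelium in these values was not tested.

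**Figure D4:**
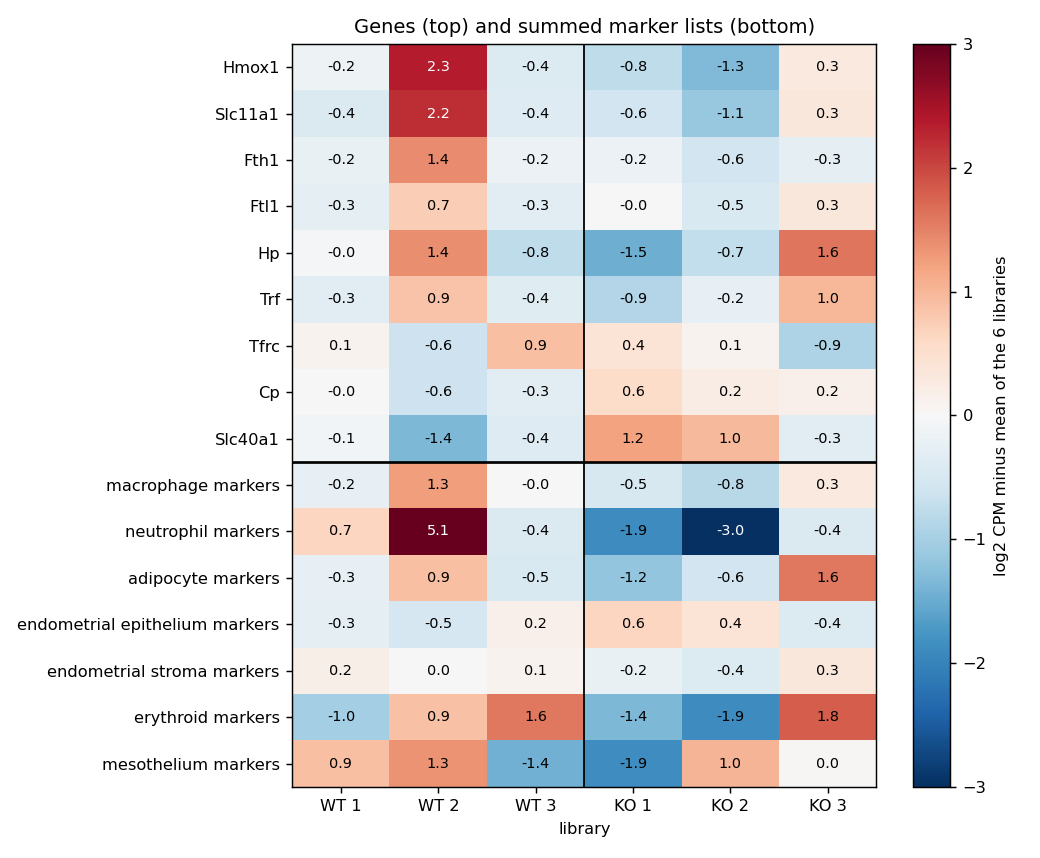
Deviation of log2 CPM from the mean of the 6 libraries for the 9 tested genes (top) and 7 summed marker lists (bottom); red is above and blue below the mean, and colour stops at 3 in either direction. Hmox1 and Slc11a1 stand 2.35 and 2.20 above their means in WT replicate 2, where neutrophil markers stand 5.08 above, and Slc40a1 stands 1.22 and 0.97 above its mean in KO replicates 1 and 2.

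Of the uptake genes, Tfrc and Trf did not differ between groups beyond their spread, and Slc39a8, a metal importer of the wider lists, is described below. Tfrc was at 96.3, 58.3 and 168 CPM in WT, against 118, 96.4 and 47.2 CPM in KO lesions. Its highest and lowest values, WT replicate 3 and KO replicate 3, were both lesions with many erythroid transcripts, summed at 623 and 728 CPM, against 56.2 to 383 CPM in the others. Its log2 fold change was -0.30 ± 0.48 (edgeR adjusted p = 0.773). Tfrc is known to move against ferritin protein when iron changes, and RNA counts do not report on that protein. Tfrc per Fth1 count, a ratio of RNAs only, was 0.0333, 0.00645 and 0.0560 in WT, against 0.0392, 0.0422 and 0.0170 in KO lesions, which overlapped (exact two-sided permutation test, p = 0.8). WT replicate 2 had the lowest ratio, with high Fth1 and low Tfrc, and the log2 difference of 0.41 was -0.50 without it.

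Trf was at 297, 684 and 293 CPM in WT, against 204, 318 and 755 CPM in KO lesions. The group means, 425 ± 224 and 426 ± 291 CPM (SD, n = 3 per group), were nearly equal, and WT replicate 2 and KO replicate 3 were both more than the other 4 lesions. These were also the lesions with the most adipocyte transcripts. As a percentage of the summed adipocyte markers Trf was more even, at 12.3, 12.8 and 13.9 in WT, against 16.2, 16.4 and 8.76 in KO lesions.

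The scavengers split by level. Hp was at 943, 2569 and 568 CPM in WT, against 350, 581 and 2972 CPM in KO lesions. As for Trf, WT replicate 2 and KO replicate 3 were highest, and the log2 fold change of -0.06 ± 0.95 turned to 0.79 ± 0.99 without WT replicate 2 and to -1.54 ± 0.75 without KO replicate 3. Hp per summed adipocyte marker was 39.1, 47.9 and 26.9% in WT, against 27.8, 30.0 and 34.5% in KO lesions, a narrower span than the 8.48 times between the highest and lowest Hp level. The part of adipose tissue and of neutrophils in Trf and Hp was not tested. Hpx was close to undetected, with 4, 46 and 0 counts in WT, against 0, 4 and 8 counts in KO lesions. A count of 0 allows up to 0.0641 CPM in WT replicate 3 and 0.0526 CPM in KO replicate 1, so the gene was not tested and its ratio to Hp was not formed. Hepatocytes, the usual source of plasma Hpx and Hp, left few transcripts: 7 of 10 hepatocyte markers were under 1 CPM in every lesion, Fgb was at 0 throughout, and the summed list, at 107 to 455 CPM in WT and 129 to 602 CPM in KO lesions, was nearly all Cyp2e1.

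The wider iron and heme pathway was read from 74 listed genes, the 10 above included, of which 73 were found and 69 tested. None had an adjusted p below 0.05 in the edgeR fit, and 6 were higher and 5 lower at an unadjusted p below 0.05. These 11 are 15.9% of the list, near the 14.7% over all genes, and with single libraries left out the higher ones numbered 2 to 6 and the lower ones 1 to 14. DESeq2 gave 3 with an adjusted p below 0.05, Tmprss6, Mafg and Alad, 4.35% of the 69 list genes that it tested, against 5.47% of all genes that it tested. The median log2 fold change of all 69 in the edgeR fit was -0.10, against 0.01 over all genes tested. It was 0.0035 without WT replicate 2, -0.0066 with upper quartile scaling and -0.22 without KO replicate 3. Past the study's threshold 3 were higher, Slc40a1, Slc39a8 and Tmprss6, and 1 was lower, Maff. These are 4.35% and 1.45% of the list, beside 3.1% and 5.85% of all genes tested.

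Slc39a8, a metal importer for zinc, manganese and iron, was at 175, 111 and 217 CPM in WT, against 617, 607 and 160 CPM in KO lesions. Its pattern was that of Slc40a1, high in KO replicates 1 and 2 and not in KO replicate 3. Its log2 fold change was 1.46 ± 0.55 (edgeR adjusted p = 0.332), and as a percentage of the summed epithelium markers it was at 7.51, 5.50 and 6.79 in WT lesions, with 13.7, 15.8 and 7.33 in KO lesions. Tmprss6, a membrane protease that restrains hepcidin in liver, was low but separate, at 5.34, 3.08 and 8.16 CPM in WT, against 19.8, 17.0 and 16.7 CPM in KO lesions. Its log2 fold change was 1.69 ± 0.36, with an adjusted p of 0.321 in edgeR and 0.00216 in DESeq2. Hepcidin itself (Hamp) had at most 0.428 CPM in any lesion. The other genes higher at an unadjusted p below 0.05 were Cp, described above, Alad, an early enzyme of heme synthesis, and Neo1, a hepcidin pathway co-receptor, the last 2 named here after their values were seen. Alad was at 33.0, 25.3 and 24.5 CPM in WT, against 49.6, 65.4 and 39.7 CPM in KO lesions, a log2 fold change of 0.90 ± 0.23, with an adjusted p of 0.321 in edgeR and 0.0422 in DESeq2. The other 7 heme synthesis genes of the list ranged over both signs.

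The list of transcription factors that act on Hmox1 and related genes leaned lower in KO lesions. It also holds Keap1, not itself such a factor and named after its values were seen (log2 fold change -0.04 ± 0.14). All 7 genes of the list, Keap1 included, had a negative log2 fold change, with a median of -0.75. Of these, 4 were below an unadjusted p of 0.05: Maff, Mafg, Mafk and Bach1, of which Mafg and Mafk were named after their values were seen. The fifth gene of the lists lower at that p was Bmp2, a ligand of the hepcidin pathway, also named so (log2 fold change -0.61 ± 0.24). The 4 are 57.1% of the 7, beside 14.7% of all genes tested, and they were 2 with the replicate block or without WT replicate 2, and 1 without KO replicate 1 or without KO replicate 2. With upper quartile scaling, which shifted the median of all genes to 0.11, 1 of the 7 turned positive, and so did 1 when WT replicate 1 or 2, or KO replicate 2, was left out. Bach1, the heme-sensing repressor of Hmox1, was at 73.4, 158 and 73.9 CPM in WT, against 44.0, 39.1 and 70.8 CPM in KO lesions, a log2 fold change of -0.99 ± 0.39. It was -0.52 ± 0.28 without WT replicate 2, where the unadjusted p was above 0.05, as it was with the replicate block, with upper quartile scaling and without KO replicate 1 or 2. Bach1 and the 3 small Maf genes, whose proteins are its partners, had every WT lesion above every KO lesion, as did 8.74% of all genes tested. All 4 were highest in WT replicate 2 and lowest in KO replicate 2, as were the summed macrophage and neutrophil markers. The macrophage sum was at 6420 and 1502 CPM in these lesions and the neutrophil sum at 12041 and 44.99 CPM. The part of these cells was not tested. Maff was at 17.5, 32.5 and 21.1 CPM in WT, against 6.63, 6.20 and 14.6 CPM in KO lesions, a log2 fold change of -1.38 ± 0.42. Mafg was at 54.9, 68.6 and 53.6 CPM in WT, against 31.9, 29.0 and 38.4 CPM in KO lesions, a log2 fold change of -0.84 ± 0.17, with an adjusted p of 0.321 in edgeR and 0.0109 in DESeq2. Mafk had a log2 fold change of -0.62 ± 0.18. Mafg, Mafk, Alad and Neo1 did not reach a log2 fold change of 1 in either direction. Nfe2l2 (NRF2), the activator that shares these partners, was at 144, 318 and 162 CPM in WT, against 149, 166 and 149 CPM in KO lesions, with all lesions but WT replicate 2 within a narrow range. Spic, the factor of iron-recycling macrophages, was at most 1.35 CPM in any lesion.

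**Figure D5:**
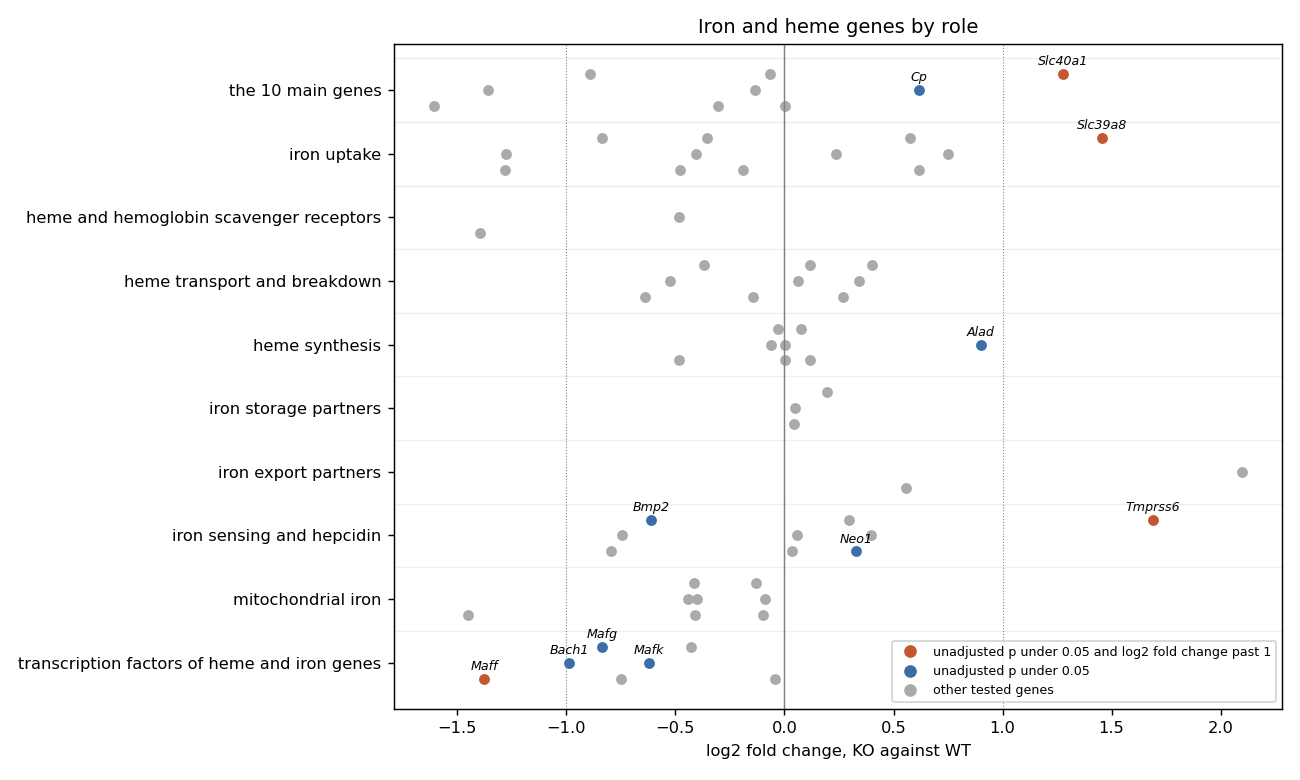
Log2 fold change of KO against WT lesions for the 69 tested iron and heme genes, grouped by role, 1 point per gene; names are given for genes with an unadjusted p below 0.05, and dotted lines mark log2 fold changes of -1 and 1. All 7 genes of the transcription factor list, Keap1 included, and all 8 mitochondrial iron genes lie below 0. The other groups with 3 or more genes lie on both sides, except the 3 iron storage partners.

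The receptors that take up what the scavengers bind were both lower in KO replicates 1 and 2. Cd163, the macrophage receptor for hemoglobin bound to haptoglobin, was at 43.7, 82.7 and 37.6 CPM in WT, against 5.70, 9.38 and 47.2 CPM in KO lesions. KO replicate 3 lay within the WT range, so the log2 fold change was -1.40 ± 0.84 with all lesions and -2.86 ± 0.49 without it (edgeR adjusted p = 0.440 and 0.117). Lrp1, the receptor for hemopexin bound to heme, was at 475, 594 and 324 CPM in WT, against 166, 184 and 647 CPM in KO lesions, again with KO replicate 3 apart. Cd163 is also 1 of the 12 macrophage markers above, whose sum was lowest in the same 2 KO lesions, and the part of macrophage number was not tested.

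Among the iron regulators, the RNA of Ireb2, which makes an IRE-binding protein, varied little. Ireb2 was between 87.0 and 98.6 CPM in all 6 lesions, and Aco1, which makes the other such protein, between 60.0 and 114 CPM, highest in KO replicate 3. Fbxl5, which directs Ireb2 protein to degradation, was at 88.0, 285 and 104 CPM in WT, against 82.1, 97.7 and 95.1 CPM in KO lesions, again highest in WT replicate 2. Ncoa4, the receptor that takes ferritin to lysosomes, was at 61.3, 108 and 59.4 CPM in WT, against 62.1, 73.0 and 101 CPM in KO lesions, highest in WT replicate 2 and KO replicate 3.

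Lactoferrin (Ltf) and lipocalin 2 (Lcn2), secreted proteins that bind iron or iron carriers and are made by uterine epithelium and neutrophils, had abundant RNA in every lesion. Ltf was at 19058, 9882 and 15526 CPM in WT, against 33570, 25488 and 15673 CPM in KO lesions, and Lcn2 at 5630, 5541 and 7374 CPM in WT, against 12590, 8787 and 6285 CPM in KO lesions. Both were lowest in WT replicate 2, the lesion with the most neutrophil transcripts, and highest in KO replicate 1. The summed epithelium markers were also lowest and highest in these lesions, at 2023 and 4488 CPM. The part of epithelium and neutrophils was not tested. Both genes overlapped between groups (log2 fold changes 0.75 ± 0.44 and 0.58 ± 0.35, and 0.47 and 0.29 without KO replicate 1). Slc11a2, the divalent metal importer related to Slc11a1, stayed between 55.4 and 79.0 CPM, Tfr2 was at most 4.05 CPM, and the heme genes Slc48a1 and Blvrb ranged from 69.2 to 122 CPM and from 19.0 to 49.3 CPM with overlap between groups. The 8 mitochondrial iron genes all had a negative log2 fold change, with a median of -0.40, of which none had an unadjusted p below 0.05 in the edgeR fit, 4 with limma and 3 without WT replicate 2. Some were highest in WT replicates 1 and 3, the lesions with skeletal muscle markers: Isca1, an iron-sulfur cluster assembly gene named after its values were seen, was at 64.4, 40.8 and 69.6 CPM in WT, against 44.4, 43.7 and 43.1 CPM in KO lesions. Others, named so too, were highest elsewhere: Slc25a37 and Slc25a28 in WT replicate 2 and Iscu in KO replicate 3. Slc25a37, with the largest fold change of the 8, was at 23.6, 99.2 and 20.5 CPM in WT, against 18.8, 18.2 and 15.4 CPM in KO lesions. The part of muscle in these values was not tested. With upper quartile scaling 1 of these 8, and without KO replicate 2 2 of them, turned positive. Over the 69 genes tested, 4 (5.8%) had every KO lesion above every WT lesion and 8 (11.6%) the reverse, beside 10.7% and 8.74% of all genes tested.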

How the data were processed

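RNA of 3 WT and 3 KO lesions had been sequenced with a TruSeq Stranded mRNA library. The authors deposited raw counts per gene. The submitters' processing notes name Trimmomatic, featureCounts and GRCm39 without versions, the study's methods name GRCm38, and the gene identifiers are of GRCm39 gene models, so no gene positions are given for the counts. Identifiers were matched to symbols for 51948 of 56884 genes, and unmatched identifiers held 3.04% to 3.56% of counts. Counts were fitted with edgeR 4.0.16 (R 4.3.3): filterByExpr, TMM, quasi-likelihood test, genotype as the only term, 18177 genes, Benjamini-Hochberg adjustment over all of them. The SE was taken as |log2 fold change| over the square root of F. The study's threshold is an unadjusted p below 0.05 and a log2 fold change above 1 or below -1. Single values and ratios had exact two-sided permutation tests. The labels describe an intraperitoneal injection of a fragment suspension, and the study's methods the suturing of a single fragment per recipient and an earlier collection. The labels tie no library to an animal, so p-values measure the spread between these samples. Alternatives were DESeq2 1.42.0, limma 3.58.1 with voom quality weights, other scalings and filters, a replicate block and single libraries left out; levels relative to marker sums were added after seeing the data. Code was tested on simulated data. The 10 genes and all lists were chosen with earlier results of these data known. Genes named are the 10, a fixed set of pathway genes, a few markers per cell type, and list genes past the study's threshold; others are said to be named after their values were seen. Hjv and Ahsp had no matching symbol. A list gene is not reported here and was left out of the list counts. IREs were searched in GENCODE M21, on GRCm38.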

Additional observations from a re-analysis of the deposited data

How the results depend on the processing

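None of the 10 genes had an adjusted p below 0.05 in any of the 13 alternatives, where the lowest was 0.0797, for Slc40a1 with limma. Of 483 alternative values, 433 were labelled the same and 28 changed sign. The same meant an unchanged direction and side of an adjusted p of 0.05 for fold changes, and a close value for counts of genes. Ratios were judged by direction alone, so their size could move: Hmox1 to Hmox2 went from -1.07 to -0.33 without WT replicate 2. Hmox1, Fth1, Slc40a1 and Cp kept their sign throughout. Ftl1 was 0.079 with limma and ranged from -0.35 to 0.30 with single libraries left out. Slc11a1 ranged from -1.86 to 0.079 so, Tfrc from -0.60 to 0.14, Trf from -0.70 to 0.53, Hp from -1.54 to 0.79 and the Tfrc to Fth1 ratio from -0.50 to 1.05. Trf, at 0.0046 by edgeR, was -0.0048 with DESeq2 size factors, -3.84e-06 with DESeq2, -0.15 with limma and -0.12 with the replicate block, and Hp was 0.026 with upper quartile scaling. Heph and Slc48a1 were -0.18 and -0.032 with limma. With single libraries left out Heph ranged from -0.52 to 0.96, Slc48a1 from -0.16 to 0.28, Ncoa4 from -0.17 to 0.38, Blvrb from -0.62 to 0.0014, Hmox2 from -0.23 to 0.013 and Nfe2l2 from -0.63 to 0.015. The count of the 10 genes past the study's threshold, 1 higher and 0 lower, was 0 higher with the replicate block, 0 to 1 with single libraries left out, and 1 lower (Hmox1) with DESeq2. In the wider lists, 3 genes had an adjusted p below 0.05 with DESeq2 and 0 in edgeR. The lists' 3 higher became 1 with the replicate block and 1 to 4 with single libraries left out; their 1 lower became 3 without the filter, 4 with DESeq2, 3 with limma and 0 to 8 with single libraries left out. Without WT replicate 1 it was 3, without WT replicate 3 it was 4, without KO replicate 3 it was 8, and without WT replicate 2, KO replicate 1 or KO replicate 2 it was 0. The causes were not tested. Over all genes, 564 higher and 1064 lower past the study's threshold became 855 and 1523 with limma, 842 and 1839 with DESeq2 and 372 and 573 with the replicate block; 12 genes had an adjusted p below 0.05 with limma and 1083 with DESeq2, against 1 in edgeR, which gave 398 without WT replicate 2. Deviations of same-numbered lesions correlated at 0.055, -0.16 and -0.23 across genes. Since the lesions differed in makeup, these values cannot settle whether replicate numbers pair the lesions. With 3 lesions per group, the permutation test cannot go below p = 0.1.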
